A study of Zea mays subsp. mays with 2 samples.

Results

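Short runs of O11 sites, in which 3 or 4 summits followed one another along a maize chromosome, were chosen by summit position alone: the summits of chromosomes 1 to 10 were sorted, neighbours at most 10000 bp apart were linked, and every chain of exactly 3 or 4 summits was kept. There were 365 such runs, 263 of 3 summits and 102 of 4, and they held 1197 of the 8967 chromosomal peaks and of the 9080 peaks in the whole list. The peaks come from 2 anti-O11 chromatin immunoprecipitation libraries of endosperm nuclei, taken 15 days after pollination. One was from wild type kernels and the other from kernels homozygous for the o11 mutation (o11/o11), which per the labels make no O11 protein and were the negative control. Both libraries carried the same custom rabbit antibody, raised against the full-length protein made in bacteria.

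O11 (Opaque11) is a transcription factor of the basic helix-loop-helix family, whose members bind DNA as dimers at short E-box elements. It acts in the starchy endosperm, the storage tissue of the maize kernel, and its loss gives small, opaque kernels. Which genes lie beside the runs was not analysed here.

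Each peak carries a pileup, the number of reads stacked at its summit, and a fold enrichment, wild type over o11 mutant. The background that these values imply was solved from them, and its lower limit in the list was 1.06 reads. That limit was shared by 3150 of the 9080 peaks and need not be the mutant's read count at the site. At the limit the fold follows from the pileup alone. There was 1 library per genotype, so no value has a replicate error. Total reads are not part of the list and the depth is unknown. A pileup of 15 reads, the median in the runs, has an exact Poisson 95% interval of 8.40 to 24.7 reads. Such intervals, and the Wilson 95% intervals on shares, cover counting error only, and PCR-amplified reads are not independent molecules. Positions, pileups, folds and lengths all come from the comparison that chose the members, so they are given as descriptions without a test. Coordinates are as the files give them, counted from 1. The sources used here do not name their genome build.

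Summits within the runs were mostly a few kb apart, and short gaps were the commonest. The 832 gaps between neighbouring summits had a median of 2329 bp and quartiles of 1196.5 and 4681 bp. Under the same linking the median gap was 2325 bp in pairs of summits and 1950 bp in runs of 5 or more. Gaps of at most 2000 bp made up 45.0% in the runs, 43.9% in pairs and 51.0% in runs of 5 or more. The shortest gap was 387 bp. Gaps of 500 to 1500 bp came at 26.2 per 100 bp of distance, gaps of 3000 to 4000 bp at 9.10, and gaps of 9000 to 10000 bp at 2.40. Only 18 gaps were under 500 bp, and whether 1 library fragment could reach both summits at such a distance was not tested. No peak was shorter than 251 bp, and the closest peak edges lay 104 bp apart.

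Runs of 4 spanned more DNA than runs of 3, with gaps of much the same length. The median gap was 2195.5 bp in runs of 4 and 2463 bp in runs of 3, and the median span from first to last summit was 8689 bp (quartiles 5668 and 12308 bp) in runs of 4, against 5944 bp (3649.5 and 8994 bp) in runs of 3. In runs of 3 the first gap had a median of 2685 bp and the second one of 2200 bp, and the first was the shorter in 132 of 263 runs. In runs of 4 the medians along the run were 2456.5, 2001 and 2214.5 bp. No place in the run had gaps that stood clear of the quartiles of the others.

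**Figure D1:**
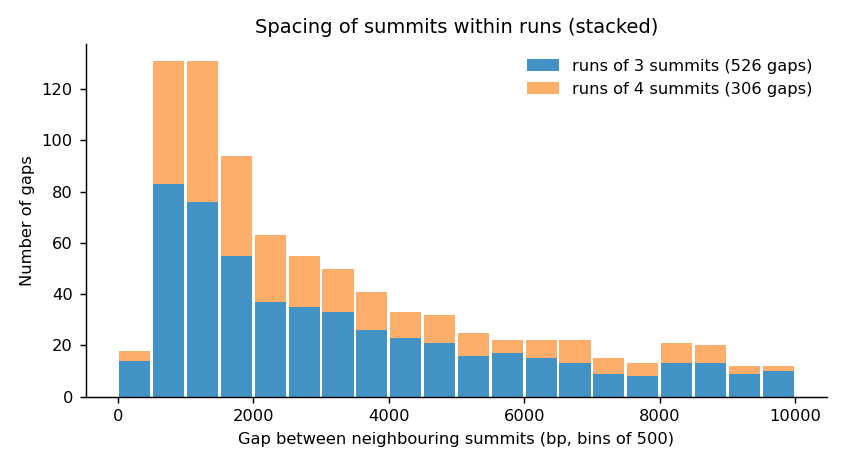
Number of gaps between neighbouring summits, in bins of 500 bp, for runs of 3 summits (blue) stacked under runs of 4 (orange). The counts are highest between 500 and 1500 bp, with 131 gaps in each of these bins, and fall away toward the 10000 bp limit of the rule.

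Gaps of one run were often unequal, and runs with a single gap of at most 2000 bp were the commonest class in both sizes. Within a run the longest gap was 2.62 times the shortest at the median, with quartiles of 1.64 and 4.82. Among runs of 3, 122 (46.4%, 95% interval 40.5 to 52.4%) had 1 gap of at most 2000 bp and 1 longer gap. A further 88 (33.5%) had both gaps over 2000 bp, and 53 (20.2%) had both at or under it. Among runs of 4, 45 had 1 gap of at most 2000 bp, 31 had 2 and 13 had 3, and the remaining 13 had none. An arrangement of 2 close pairs on either side of a gap over 2000 bp was found in 6 of the 102 runs of 4. The longest gap of a run of 4 was the first in 40 runs, the middle one in 30 and the last in 32.

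The runs with the shortest span packed 3 peaks into less than 1.5 kb. On chromosome 8 a run spanned 1.33 kb, with summits at 156178364, 156179101 and 156179693 and pileups of 10, 12 and 9 reads. On chromosome 6 one spanned 1.42 kb from 149778665, with pileups of 8, 10 and 10 reads, and another 1.43 kb from 58608365, with pileups of 21, 14 and 16 reads. In none of these 3 did the pileups differ beyond their Poisson intervals. The longest span was that of a run of 4 on chromosome 2, 22.1 kb from 137296143 to 137318217, with gaps of 8852, 8129 and 5093 bp and pileups of 9, 13, 14 and 9 reads. The next was 18.8 kb on chromosome 6 from 133523384, with pileups of 8, 19, 10 and 34 reads, and the third 18.7 kb on chromosome 10 from 4512581, with gaps of 9353 and 9396 bp and pileups of 22, 13 and 11 reads.

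Near the 10000 bp limit the membership of a run turned on small distances. The gap just inside it measured 9986 bp, in a run on chromosome 8 with summits at 131578877, 131581061 and 131591047, each of 9 reads. The summit just outside it lay 10031 bp from a run on chromosome 1 that began at 289350552 and had pileups of 8, 10 and 14 reads. Of the 365 runs, 23 had a gap over 9000 bp, and 14 had the nearest outside summit within 11000 bp. The median distance to the nearest outside summit was 42296 bp, with quartiles of 21664 and 96928 bp, and 84 runs (23.0%) had one within 20000 bp.

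A single dominant summit was uncommon. The highest pileup was at least 2 times the next highest in 54 of the 365 runs (14.8%, 95% interval 11.5 to 18.8%), and at least 3 times in 10 (2.74%). At the median the highest was 1.28 times the next (quartiles 1.11 and 1.64) and 1.73 times the lowest (1.40 and 2.33). In 29 runs (7.95%) the Poisson intervals of the highest and the next highest did not overlap. In 72 runs (19.7%) those of the highest and the lowest did not overlap. In the other runs the intervals of highest and lowest overlapped, which does not show that their pileups were equal.

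Runs of 3 had a dominant summit in 45 of 263 cases (17.1%, 13.0 to 22.1%) and runs of 4 in 9 of 102 (8.82%, 4.71 to 15.9%). The share was 16.3% in pairs of summits (161 of 987) and 4.55% in runs of 5 or more (4 of 88). These classes differ in how many summits are compared, and the part of that number in the shares was not tested. The highest summit held a median of 41.9% of the summed pileup in runs of 3, where an even division gives 33.3%, and 33.2% in runs of 4. It held more than 50% in 56 runs of 3 and 4 runs of 4.

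The highest summit had no fixed place in the run. Ties for the highest pileup left 335 runs to place. In runs of 3 it was the first summit in 89, the middle one in 81 (32.7%, 27.1 to 38.7%) and the last in 78. In runs of 4 it was the first in 20, the second in 24, the third in 14 and the last in 29. An inner summit was highest in 119 of the 335 (35.5%, 30.6 to 40.8%), where even placing gives 37.7%. Among the 54 runs with a dominant summit it was an inner one in 14 (25.9%, 16.1 to 38.9%), where even placing gives 36.1%, which lies inside that interval. By place, the dominant summit was the first in 25 of the 54 (46.3%, 33.7 to 59.4%), the second in 13, the third in 14 and the fourth in 2. Within runs of 3 it was the first in 21 of 45 (46.7%, 32.9 to 60.9%), where even placing gives 33.3%. A lean of dominant summits to the first place was not tested. When the highest of 3 summits stood at an end, it lay on the side of the shorter gap in 83 of 167 runs (49.7%).

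**Figure D2:**
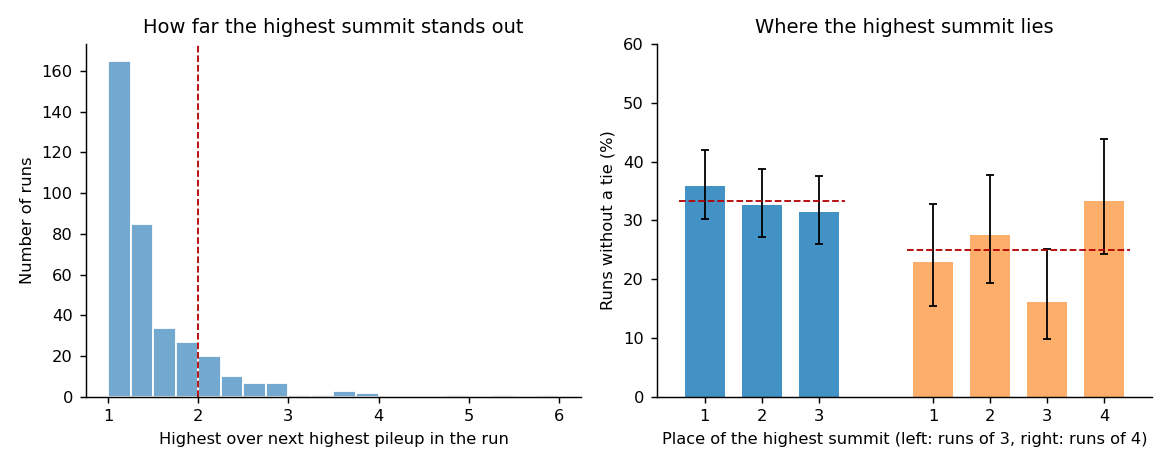
Left, the number of runs by the ratio of the highest to the next highest pileup, with a dashed line at 2 times, which 54 of 365 runs reach. Right, the place of the highest summit in runs of 3 (blue) and of 4 (orange), as a percent of runs without a tie, with Wilson 95% intervals and dashed lines at even placing.

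The ratio between neighbouring pileups had no order by distance, and their rank correlation differed little between classes of distance. Of neighbours under 1000 bp apart, the larger pileup was 1.33 times the smaller at the median, over 149 gaps. The median ratio was 1.36 for 225 gaps of 1000 to 2000 bp, 1.33 for 274 gaps of 2000 to 5000 bp and 1.28 for 184 wider gaps. The share of neighbours that differed by at least 2 times ran from 15.8 to 19.3% over these classes, without an order by distance. Spearman's rho of the neighbouring pileups was 0.45, 0.40, 0.38 and 0.38 from the closest class to the widest. Neighbours share the library and often the local background, and neighbouring gaps of a run share a summit. Each rho is given as a description without an interval, and a trend with distance was not tested.

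Runs with a dominant summit had taller highest summits than the others, and companions of similar median height. The highest pileup had a median of 35 reads (quartiles 29 and 41) in the 54 runs with a dominant summit and 21 reads (14 and 27) in the other 311. The next highest had a median of 14 reads (12 and 16) with a dominant summit and 15 reads (12 and 21) without, and the lowest had 11 reads in both classes. The median gap was 2386 and 2325 bp. The ratio of the highest to the next defined the classes, so both the highest and the next highest pileups are in part set by the division.

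The run on chromosome 10 that led both by fold and by dominance had one tall summit at its low end. It began with a peak from 146402092 to 146403073, 982 bp long, whose summit at 146402533 had 69 reads (95% interval 53.7 to 87.3) and a fold of 34.0. The 3 peaks after it, 4258 bp and more away, had 9, 7 and 12 reads and folds of 4.86, 3.89 and 6.32. The tall summit held 71.1% of the summed pileup and 5.75 times the reads of the next. In all 4 peaks the background was at its lower limit.

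On chromosome 3 the tall summit of a run of 4 was the third. It lay at 185367402 in a peak of 929 bp, with 53 reads (39.7 to 69.3) and a fold of 26.3, and the summits beside it had 8, 11 and 11 reads. On chromosome 7 the middle of 3 summits, at 163966085, had 58 reads (44.0 to 75.0) and a fold of 19.8 between neighbours of 11 and 10 reads, 688 bp before it and 2820 bp after it. That summit held 73.4% of the pileup of its run, and its background of 1.99 reads was above the limit.

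Tall summits at an end were seen on 5 further chromosomes. On chromosome 1 the summit at 50951521 had 49 reads (36.3 to 64.8) and a fold of 24.3, and the 2 after it had 14 reads each. On chromosome 6 the summit at 129844072 had 45 reads and a fold of 22.4, with 12 and 8 reads after it. On chromosome 2 the summit at 43589567, in a peak of 1019 bp, had 37 reads and a fold of 18.5, with 10 and 9 reads after it. In each of these 3 runs the tall summit came first. On chromosome 8 it came last, at 123043197, in a peak of 990 bp with 50 reads (37.1 to 65.9) and a fold of 17.7, after 2 summits of 13 reads. On chromosome 9 it also came last, in a run from 154912130 to 154921153 with 37 reads and a fold of 18.5 after 2 summits of 10 reads. That run and the chromosome 2 run had the same ratio of highest to next, 3.70.

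Other runs with a high fold had more than one tall summit. The run of 4 on chromosome 2 from 189058998 to 189072395 opened with 42 reads (30.3 to 56.8; fold 20.9) and 66 reads (51.0 to 84.0; fold 31.9), 2457 bp apart, and ended with 11 and 13 reads further on. The intervals of its first 2 summits overlapped. The run of 4 on chromosome 5 from 87400405 to 87408797 was made of 2 close pairs, 762 and 947 bp apart, with 6683 bp between the pairs. Its pileups were 25, 20, 44 and 26 reads and its folds 12.6, 5.77, 21.6 and 13.1. Each pair held one summit with a background at the limit.

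**Figure D3:**
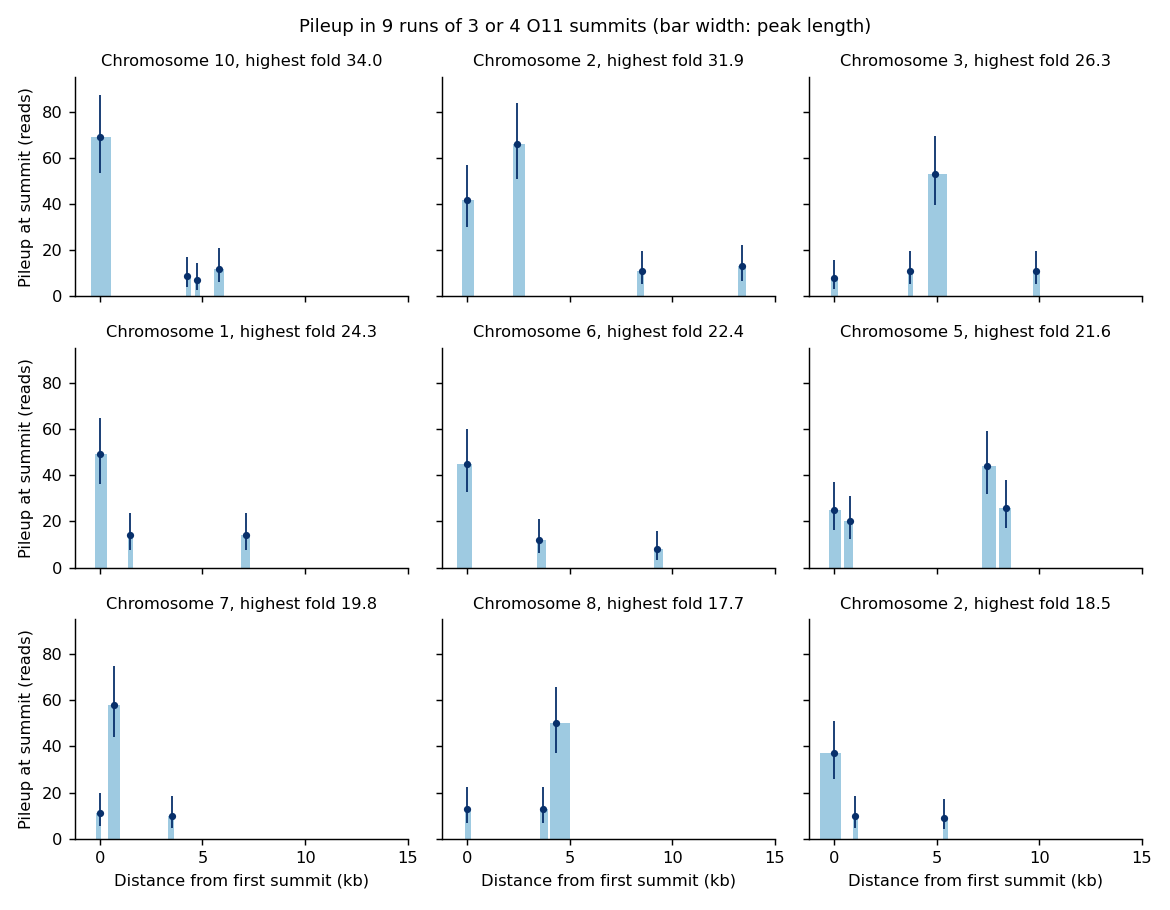
Pileup at each summit (points, reads, with exact Poisson 95% intervals) against distance from the first summit of the run (kb), for the 6 runs with the highest folds and 3 of the 4 further runs with the most dominant summits (a chromosome 9 run tied with the last is not drawn). Each bar is as wide as its peak and as high as the summit's pileup. One summit stands clear in 7 of the panels, while those for chromosome 2 at fold 31.9 and chromosome 5 hold more than 1 tall summit.

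The most even runs were nearly all low. Pileups were 10, 10 and 10 reads in a run on chromosome 2 from 120501750 and again in one on chromosome 8 from 132048812, and 9, 9 and 9 reads in the chromosome 8 run from 131578877. The fourth was tall as well as even: on chromosome 4, summits at 155554438, 155560664 and 155561417 had 37, 36 and 35 reads and folds of 9.77, 8.50 and 8.40. Counting error at 37 reads spans 26.1 to 51.0 reads, so evenness to within a few reads is not resolved at this depth.

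Peaks with a fold of at least 10 were 173 of the 1197 members (14.5%, 95% interval 12.6 to 16.6%), beside 11.7% of all chromosomal peaks. Runs were defined on the same comparison, so nothing is read from this difference. There were 11 members, in 10 runs, with folds of 20 or more (0.919%, 0.514 to 1.64%), beside 0.569% of all chromosomal peaks, which lies inside that interval. Whether peaks with a fold of at least 10 shared runs more or less often than their share of 14.5% gives was not tested. In 230 runs no peak reached a fold of 10, in 104 a single one did, in 24 there were 2 and in 7 there were 3. Every peak reached it in 4 runs, all of 3 summits and all on chromosome 2, which are named here because their values were seen.

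The first of these 4 ran from 144863033 to 144867438, with 23, 23 and 36 reads and folds of 11.7, 11.7 and 18.0. Another, from 205215180 to 205224154, had 35, 21 and 26 reads and folds of 17.5, 10.7 and 13.1. The run from 22692347 to 22697167 had 32, 34 and 22 reads and folds of 16.0, 12.7 and 11.2. The last, from 189120549 to 189124532, had 22, 28 and 31 reads and folds of 11.2, 14.1 and 15.6, and it lay 48154 bp above the chromosome 2 run that held the fold of 31.9. In these 4 runs no pileup was under 21 reads, and 11 of the 12 backgrounds were at the limit.

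Peaks in the runs were longer than those standing alone, though their pileups were a little lower. Median length was 383 bp (quartiles 294 and 529 bp) in the runs, 358.5 bp in pairs, 382 bp in runs of 5 or more and 347 bp (280 and 458 bp) for summits standing alone. Median pileups were 15, 15, 14 and 17 reads in the same order, and median folds 6.08, 5.90, 5.93 and 5.83. Peaks of at least 1000 bp made up 2.92% of members (35 of 1197, 2.11 to 4.04%) and 1.41% of summits standing alone (74 of 5257, 1.12 to 1.76%).

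The difference in length was also present at equal pileup, except among the weakest peaks. For pileups of 10 to 12 reads the median length was 322.5 bp in the runs and 292 bp alone. For 16 to 19 reads it was 400 and 340 bp, for 20 to 29 reads 463 and 383 bp, and for 30 to 49 reads 593.5 and 489 bp. For 7 to 9 reads the order turned, with 287 bp in the runs and 299 bp alone. Among peaks with a background at its limit the medians for 20 to 29 reads were 527 bp in 58 members and 491 bp in 143 peaks alone. They were 636 bp in 68 peaks of pairs and 676 bp in 25 peaks of runs of 5 or more. For 10 to 12 reads at the limit they were 323 bp in members, 307 bp in pairs and 291.5 bp alone. The quartile ranges of the classes overlapped in every band. How far the background bears on these lengths was not tested.

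**Figure D4:**
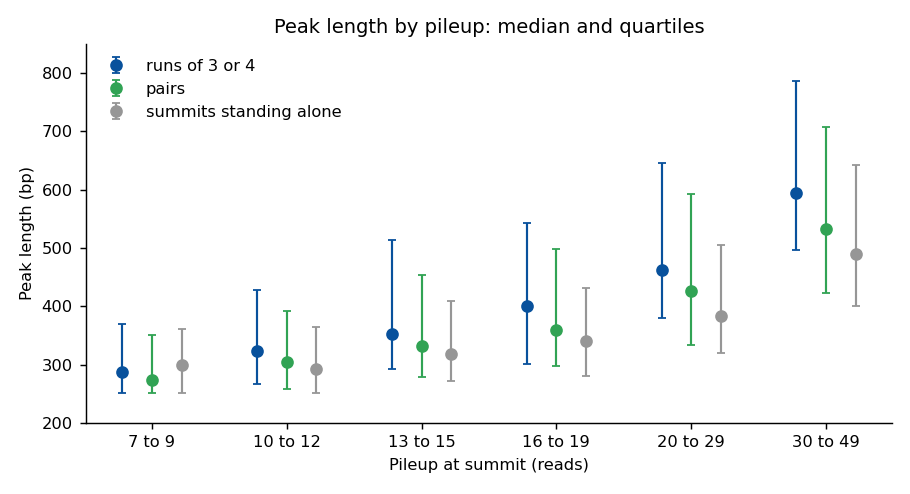
Peak length (bp; points are medians, bars run between quartiles) in bands of pileup (reads), for runs of 3 or 4 (blue), pairs (green) and summits standing alone (grey). From 10 reads upward the median in runs of 3 or 4 is the highest of the 3 classes shown, while the quartile ranges overlap. For 20 to 29 reads it is 463 bp in the runs and 383 bp alone. Runs of 5 or more are not drawn, and their median for 20 to 29 reads was 504 bp.

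Within a run the tallest summit usually sat in the longest peak. In 202 of 335 runs without a tie (60.3%, 55.0 to 65.4%) the highest pileup and the longest peak were the same. Length and pileup went together in every class of peaks. Their Spearman's rho was 0.51 in members, 0.48 in pairs, 0.48 in runs of 5 or more and 0.45 for summits standing alone. The peak of the highest summit had a median of 493 bp and the others of the same runs 348 bp. The widest members were also the tallest of their runs, by a small margin in reads. On chromosome 1 a peak of 2030 bp with 19 reads closed a run that began at 292603159, beside 18 reads in a peak of 545 bp. On chromosome 2 a peak of 1979 bp with 26 reads opened a run of 4 at 40765006, whose other summits had 13, 17 and 20 reads. The Poisson intervals of each widest peak and its nearest rival in reads overlapped. The peaks of a run together covered a median of 20.1% of its length from first to last peak edge, with quartiles of 13.9 and 32.6%. Median lengths were close at every place of the run: in runs of 3 the medians were 392, 374 and 380 bp along the run, and in runs of 4 they were 403.5, 389.5, 387 and 392 bp.

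The highest summed pileups belonged to runs with a high background. On chromosome 6 the summits at 160957994, 160959325 and 160959767 had 190, 133 and 97 reads over backgrounds of 80.9, 29.0 and 17.6 reads, and folds of only 2.33, 4.47 and 5.26. A second run 15071 bp above it, from 160974838, had 51, 53 and 75 reads and folds of 3.09, 6.06 and 3.74. On chromosome 9 the summits at 74005760, 74007651 and 74011626 had 104, 221 and 85 reads and folds of 5.16, 3.27 and 3.25. In each of these 3 runs the tallest summit was not the one with the largest fold. Over all runs without a tie the 2 measures picked the same summit in 276 of 335 (82.4%). Part of this agreement was fixed in advance. Where every background of a run is at the limit, as in 98 of all 365 runs, fold and pileup rank the summits alike.

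Backgrounds at the lower limit were frequent in the runs. They were found at 561 of 1197 members (46.9%, 44.1 to 49.7%), at 36.7% of peaks in pairs, 58.6% in runs of 5 or more and 29.4% of those alone. Among peaks with a pileup under 20 the shares were 57.5% in the runs and 41.1% alone. In 98 runs every peak was at the limit, in 129 none was, and 138 were mixed. The part of the low background in the number of runs was not tested.

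Runs of 3 or 4 were gathered toward the high-coordinate ends of the chromosomes. Each chromosome was divided into 5 equal parts up to the end of its last peak. The last part held 585 of the 1197 members (48.9%, 46.0 to 51.7%), against 56.2% of peaks in runs of 5 or more, 38.9% of those in pairs and 30.6% of those standing alone. The middle part held 76 members (6.35%, 5.10 to 7.88%), against 3.90, 11.9 and 14.0% in the same classes. The first part held 15.7% of members, the second 7.52% and the fourth 21.6%. Members of a run share their position, so these intervals are too narrow.

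Peaks of every kind were densest in the last part, with 36.4% of all chromosomal peaks, and the part of density in the position of the runs was not tested. Members made up 17.9% of all peaks in the last part, 12.7% in the fourth, 7.13% in the middle, 9.85% in the second and 11.1% in the first. Of the stronger peaks, with 20 reads or more, 43.2% of members lay in the last part and 27.2% of those standing alone did. The share was 41.3% in runs of 5 or more, 36.0% in pairs and 31.4% of all stronger chromosomal peaks. Dominance and spacing were much the same at both ends of the chromosomes. Dominant summits were found in 14.5% of 179 runs in the last part and 13.8% of 58 runs in the first. Median gaps were 2477.5 bp in the last part and 2445.5 bp in the first. The highest pileup of a run had a median of 21 reads in the last part and 25.5 reads in the first. Backgrounds at the limit were found at 46.5% of members in the last part and 31.4% in the first.

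**Figure D5:**
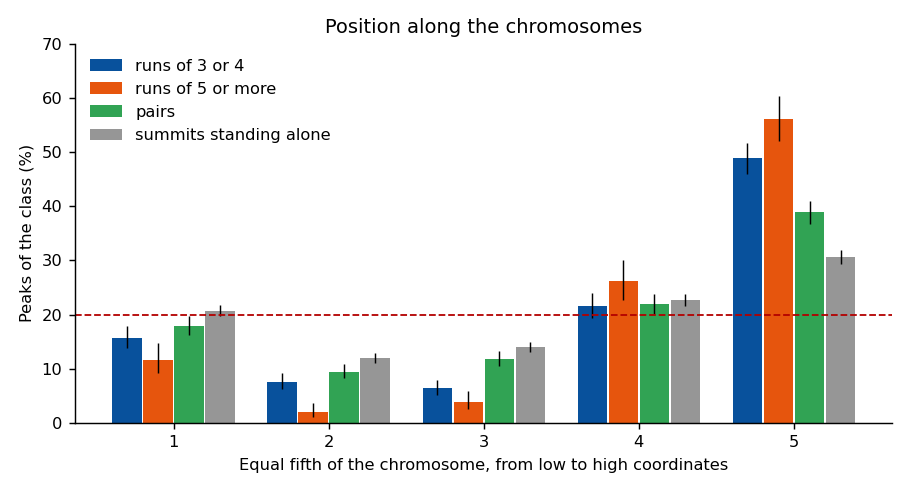
Percent of the peaks of each class in 5 equal parts of the chromosomes, from low to high coordinates, with Wilson 95% intervals and a dashed line at an even 20%. Runs of 3 or 4 (blue) have 48.9% in the last part and 6.35% in the middle, between runs of 5 or more (orange) and pairs (green).

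Chromosome 8 had the most runs for its length and chromosome 4 the fewest. Chromosome 8 held 59 runs, 33.8 per 100 Mb (exact Poisson 95% interval 25.7 to 43.6), and 18.1% of its peaks were members. Chromosome 4 held 9 runs, 3.72 per 100 Mb (1.70 to 7.06), and 4.86% of its peaks were members. Over all chromosomes there were 17.8 runs per 100 Mb. Chromosomes 2 and 6 had 24.8 and 23.1, and the other six ranged from 13.4 on chromosome 10 to 19.8 on chromosome 3. The share of peaks in runs varied less than the density, from 10.8% on chromosome 1 to 15.9% on chromosome 3 once chromosomes 4 and 8 are set aside.

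The lean to the last part was not alike on every chromosome. On chromosome 7 it held 67 of 83 members (80.7%), on chromosome 10 it held 71.0% and on chromosome 1 it held 67.2%. Members exceeded all peaks of the same chromosome there on 8 of 10 chromosomes. The exceptions were chromosome 2, with 26.4% of members and 26.5% of all its peaks, and chromosome 9, with 35.6 and 37.2%. Chromosome 9 also had 23.8% of its members in the middle part, above an even 20%, while chromosomes 4, 7 and 8 had none there. On chromosome 9 a single window of that part, 65 to 70 Mb, held 6 runs. Of the 77 peaks in this window, 94.8% were at the background limit.

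Runs were often near other runs. The median distance from a run's centre to the next was 494968 bp, 61 runs (16.7%) had another within 100 kb and 239 (65.5%) had one within 1 Mb. In windows of 5 Mb, 155 of 416 held at least 1 run. The fullest was 160 to 165 Mb on chromosome 7, with 9 runs and 66 peaks, only 13.6% of them at the background limit. Windows with 8 runs each lay at 260 to 265 Mb on chromosome 1 and at 130 to 135 and 155 to 160 Mb on chromosome 8, where 69.0, 59.6 and 59.2% of peaks were at the limit. Chromosome 7 was also the one chromosome whose members were at the limit less often than all its peaks, 10.8% against 21.7%.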

How the data were processed

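The authors deposited 1 peak list and a matching summit list for the 2 libraries. The submitters' processing notes name Bowtie2 and MACS2 2.0.10. The peaks' names carry tags reading v3 and q0.01, which no source used here explains, and no other setting or genome build is stated. Per the file headers, the deposited columns give for each peak a pileup (coverage signal, in reads), the fold enrichment as a ratio, and p-values and q-values as −log10. No column names a library, and folds are read as wild type over o11 mutant because the labels call the mutant the negative control. All 9080 summits matched the peak list.

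The background was solved as (pileup plus 1) over fold, minus 1. A Poisson upper tail of the pileup at that background came within 0.000209 of each deposited −log10 p. A background within 0.001 of its lowest value counts as at the limit. Runs, gaps and shares were computed with Python 3.11.15, pandas 2.3.3 and scipy 1.17.1, and the linking was tested on simulated positions. A dominant summit had at least 2 times the next highest pileup.

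The runs named are the 6 with the largest fold, the 6 with the largest ratio of highest to next pileup and 1 tied with the last of them, the 4 most even, the 3 shortest, the 3 longest, the 3 with the largest summed pileup, the 2 with the widest peaks and those at the 10000 bp limit. The members, the naming rule and the alternatives were chosen with earlier results of these data known. No test was run, because each measure comes from the comparison that chose the members. The depth is unknown. Alternatives were other linking distances, stricter lists, thinned summits, other limits for dominance, fold in place of pileup and another division of the chromosomes. Genes and sequence at the runs were not analysed here.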

Additional observations from a re-analysis of the deposited data

Results flagged for a closer look

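Runs of the same size were also present outside chromosomes 1 to 10, in peaks that no comparison above used. All of them lay on the mitochondrial sequence, where 27 of 89 peaks fell into 7 runs of 3 or 4 summits. The 7 runs lay between 137254 and 561216 bp, whereas the 8967 chromosomal peaks spread over 2056 Mb. Peaks crowded on a short sequence are readily linked at 10000 bp, and the part of density in these runs was not tested. These 27 peaks had a median pileup of 101 reads over a median background of 37.8 reads and a median fold of 2.56, against 15 reads, 1.10 reads and 6.08 in the chromosomal runs. These peaks are given because the comparisons above left them aside. Enrichment over the o11 mutant library does not set them apart, as every peak of the list was called on it.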

How the results depend on the processing

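The number of runs and of member peaks, 365 and 1197, stayed within 1.5 times under other linking distances, a fold of at least 5, thinning and removal of high backgrounds. They were 106 and 342 when only peaks reaching the list's median −log10 q were linked, and 52 and 163 for a pileup of at least 20. The median gap of 2329 bp became 1709.5 bp at a linking distance of 5000 bp, 3251.5 bp at 20000 bp and 2983 bp with summits under 1000 bp apart thinned, and the median span of 6863 bp became 4453.5, 9860 and 8127.5 bp. These follow from the construction. Dominant summits, 14.8% of runs, were 31.5% at 1.5 times and 2.74% at 3 times. They were 3.77% with the median −log10 q, 7.69% for folds of 5 or more and 3.85% for pileups of 20 or more, lists that drop low companions. With the same 3 lists the median length of 383 bp became 481, 412 and 493 bp, against 424, 382 and 441 bp for all their peaks. The median pileup of 15 reads became 22, 16 and 26 reads, and the median fold of 6.08 became 8.27, 6.81 and 8.70. The share with a fold of at least 10, 14.5%, became 29.5, 17.3 and 37.4%, against 23.5, 15.7 and 33.6% of all peaks in those lists. The share at the background limit was 46.9%, against 35.1% of all chromosomal peaks. It was 35.7% with the median −log10 q, where all peaks of that list had 27.7%. With a pileup of at least 20 it was 16.0%, where all peaks had 13.0%. That last list also gave 28.6% of runs with an inner highest summit (35.5% as reported) and 41.7% of members in the last part (48.9%), where all peaks of that list had 31.4%. The other values stayed within the 95% interval of the reported one, or, for counts, within 1.5 times. Of the 1197 members, 746 (62.3%) were still in runs of 3 or 4 at 5000 bp and 1009 (84.3%) at 20000 bp. In the 3 stricter lists the numbers were 232, 647 and 131. No paired analysis was possible because there was only 1 library per genotype. A pileup near the median has a wide counting interval, so modest dominance is not resolved at this depth.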
